A study of Mus musculus with 18 samples.

Results

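Scavenger and endocytic receptors bind modified lipoproteins, glycoproteins, hormone and hemoglobin complexes, microbes or dying cells at the surface of a macrophage and carry them into endosomes. The set described here holds 10 genes, Mrc1, Cd163, Stab1, Msr1, Marco, Cd36, Lyve1, Scarb1, Scarb2 and Colec12, taken by symbol from the 13759 genes counted in the macrophages, and all 10 were in that table. Bulk RNA-seq was performed on macrophages sorted from liver metastases of female C57BL6/J mice, 8 to 10 weeks old, 20 days after MC38 cells were injected into the spleen. MC38 is a mouse colon adenocarcinoma line. The F4/80high macrophages were lineage-negative CD45+CD11b+F4/80high cells and the F4/80low macrophages lineage-negative CD45+CD11b+F4/80low cells, with 3 libraries of each. The text of the study calls the second population F4/80int. The labels give no engineered allele and no treatment other than the tumor cells for either group. Neither the number of animals behind a library nor whether each library came from separate animals is given. The p-values below therefore measure the spread between these libraries, which may be technical.

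In the liver several of these receptors are known from Kupffer cells and from the sinusoidal endothelium, which shares Stab1, Lyve1, Mrc1, Cd36 and Scarb1 with macrophages. Class A receptors (Msr1, Marco, Colec12) have a collagen-like stalk, class B receptors (Cd36, Scarb1, Scarb2) cross the membrane at both ends, and Stab1, Mrc1, Cd163 and Lyve1 belong to other structural classes. Monocytes that become macrophages in a tissue often change the receptors they carry.

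Promoter sequence is shown for the 3 receptors on which the result turns, Mrc1 and Stab1, which were higher in F4/80high macrophages, and Cd36, which was lower. Each line holds the 250 bases before the RefSeq start, 5′ to 3′ on the strand of the gene, from RefSeq on GRCm38.p6, a build other than the GRCm39 of the gene positions below. The windows are chr2:14229164-14229413 on the plus strand for Mrc1, chr14:31168642-31168891 on the minus strand for Stab1 and chr5:17835897-17836146 on the minus strand for Cd36. Capitals mark GAGGAA, a core bound by the myeloid factor PU.1, and TGCTGA, the core of the site of MAF factors, on either strand (TTCCTC and TCAGCA).
Mrc1: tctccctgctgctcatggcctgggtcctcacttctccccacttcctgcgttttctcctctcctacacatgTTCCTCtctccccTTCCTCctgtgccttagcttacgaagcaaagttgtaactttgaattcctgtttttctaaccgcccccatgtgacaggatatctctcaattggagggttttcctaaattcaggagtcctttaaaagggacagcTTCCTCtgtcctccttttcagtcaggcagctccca
Stab1: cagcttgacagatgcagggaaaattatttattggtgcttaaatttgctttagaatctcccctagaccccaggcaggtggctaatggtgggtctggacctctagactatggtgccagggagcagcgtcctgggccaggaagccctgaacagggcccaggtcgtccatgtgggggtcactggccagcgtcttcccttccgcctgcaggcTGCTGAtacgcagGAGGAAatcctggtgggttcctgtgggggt
Cd36: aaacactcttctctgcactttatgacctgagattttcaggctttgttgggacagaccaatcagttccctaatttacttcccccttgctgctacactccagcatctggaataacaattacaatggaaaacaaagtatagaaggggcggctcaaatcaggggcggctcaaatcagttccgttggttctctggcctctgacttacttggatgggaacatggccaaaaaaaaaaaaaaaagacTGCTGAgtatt
The Mrc1 window held 3 copies of the PU.1 core, all on the opposite strand, and no MAF core. The Stab1 window held 1 of each motif, and the Cd36 window held 1 MAF core, 11 bases before the start. Of the 6 receptors whose RefSeq promoter was read here, Marco also held the PU.1 core and Scarb2 the MAF core, whereas neither string was found for Cd163. The promoters of the other receptors of the set were not read, which does not show that they lack a RefSeq promoter. Among 32536 mouse promoter windows of the same length, 23.4% held the PU.1 core and 16.1% the MAF core. The match is one of letters only and does not show binding.

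Libraries held 21278959 to 32267015 counts. Levels are given as CPM, counts relative to the library total after TMM scaling. A count of 3, the lowest number taken as a measured level, corresponded to 0.093 to 0.141 CPM before that scaling. The labels were checked on Adgre1, which encodes F4/80 and was used for the sort. Adgre1 lay at 901, 806 and 1167 CPM in the F4/80high libraries and at 124, 160 and 153 CPM in the F4/80low libraries. Itgam, which encodes CD11b, was at 1387 ± 283 and 1282 ± 250 CPM (mean ± SD, n = 3). The monocyte genes Ly6c2 (8.79 ± 4.71 against 106 ± 19.3 CPM) and Ccr2 (463 ± 53.9 against 1371 ± 19.0 CPM, n = 3 each) were lower in F4/80high macrophages. F13a1, of the classical monocyte list read below, was higher. Replicates differed by far more than counting noise, so none appeared to be the same library counted again.

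Of the 10 receptors, 7 were higher and 2 were lower in F4/80high macrophages by edgeR's quasi-likelihood test at an adjusted p below 0.1, and Colec12 did not pass. Across all 13759 genes 54.9% passed, 27.8% as higher and 27.1% as lower. All 3 F4/80high libraries lay above all 3 F4/80low libraries for 6 receptors, as for 29.8% of all genes, and below them for 2, as for 28.6%. The libraries of the groups thus did not overlap for 8 receptors, against 58.4% of all genes. The median log2 fold change of the receptors was 0.81, and that of all genes 0.01. The receptors together took 0.569%, 0.506% and 0.694% of the counts of the F4/80high libraries and 0.0997%, 0.108% and 0.125% of those of the F4/80low libraries. In bulk samples a smaller number of cells that carry a receptor and less RNA per cell cannot be told apart.

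**Figure D1:**
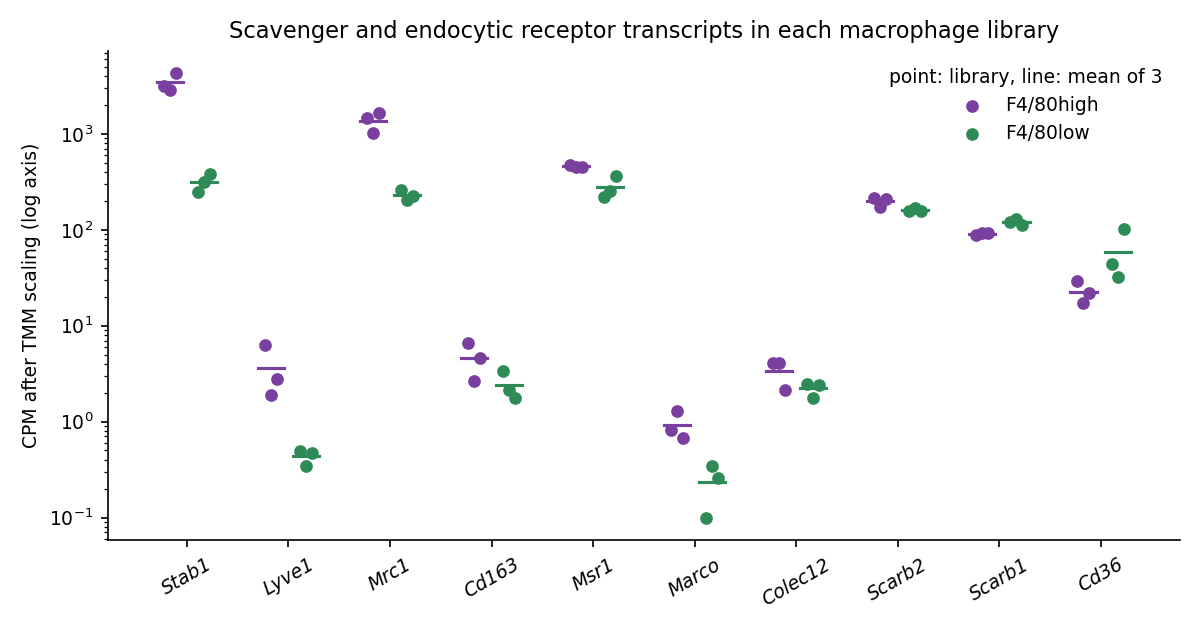
Level of each receptor (log axis, CPM after TMM scaling) in the 3 F4/80high (purple) and 3 F4/80low (green) libraries, with a point for each library and a line at the mean of the group. Stab1 and Mrc1 were separated by the widest gaps among the abundant receptors, Cd163 and Colec12 overlapped, and Scarb1 and Cd36 were higher in F4/80low macrophages.

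Stab1 and Mrc1 rose in F4/80high macrophages and had the highest levels of the set there. Stab1, stabilin-1, takes up modified low-density lipoprotein, the matrix protein SPARC and placental lactogen and sorts them to lysosomes. Stab1 (ENSMUSG00000042286.14, chr14:30860970-30890598 on GRCm39, minus strand) lay at 3179.5, 2898 and 4312 CPM in F4/80high libraries 1, 2 and 3 and at 249, 318 and 379 CPM in F4/80low libraries 1, 2 and 3. The lowest F4/80high library was thus well above the highest F4/80low library. The means were 3463 ± 748 and 315 ± 65.2 CPM (SD, n = 3 each), a 10.99-fold ratio and a log2 fold change of 3.46 (SE 0.21, edgeR adjusted p = 8.5e-06). Stab1 had the largest log2 fold change of the 10 receptors. Exons of 3 genes on the opposite strand (Nt5dc2, Gm62616 and Gm52148) overlap those of Stab1, and how the counting treated strand is not given in the sources used here, so reads of these genes cannot be told apart from those of Stab1 with certainty.

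Mrc1 encodes the mannose receptor CD206, which binds mannosylated glycoproteins and collagen. Mrc1 (ENSMUSG00000026712.4, chr2:14234151-14336926, plus strand) was measured at 1453, 1030.3 and 1631 CPM in the F4/80high libraries and at 257, 202 and 224 CPM in the F4/80low libraries. The groups did not overlap. The means were 1371.5 ± 309 and 228 ± 27.6 CPM (n = 3 each), a 6.02-fold ratio and a log2 fold change of 2.59 (SE 0.18, edgeR adjusted p = 1.7e-05). No exon of another gene overlaps those of Mrc1 in the annotation.

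Lyve1 also rose, from and to a low level. Lyve1 encodes a hyaluronan receptor that is a marker of lymphatic and sinusoidal endothelium and of some tissue-resident macrophages. Lyve1 (ENSMUSG00000030787.5, chr7:110448585-110462460) had 139, 54 and 86 counts in the F4/80high libraries and 15, 10 and 11 in the F4/80low libraries, or 6.26, 1.91 and 2.79 CPM against 0.493, 0.342 and 0.476 CPM. The F4/80high libraries were all higher, with library 1 far above the other two. The log2 fold change was 3.05 (SE 0.50, edgeR adjusted p = 0.0014) and fell to 2.42 (adjusted p = 0.0019) without F4/80high replicate 1.

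Cd163, the receptor for hemoglobin and haptoglobin complexes, was a low transcript in both subsets. Cd163 (ENSMUSG00000008845.10, chr6:124281606-124307560) was at 6.53, 2.66 and 4.57 CPM in the F4/80high libraries and at 3.38, 2.12 and 1.77 CPM in the F4/80low libraries. F4/80high library 2 lay below F4/80low library 1, so the groups overlapped. The log2 fold change was 0.91 (SE 0.37, edgeR adjusted p = 0.077). That call was lost without F4/80high replicate 1 (adjusted p = 0.258), F4/80high replicate 3 (0.135), F4/80low replicate 2 (0.181) or F4/80low replicate 3 (0.194), and with limma-voom (0.114). The adjusted p lay between 0.0221 and 0.258 over all alternatives.

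Of the class A receptors, Msr1 and Marco rose and Colec12 did not pass the test. Msr1, the class A macrophage receptor for acetylated low-density lipoprotein, was at 474, 456 and 448 CPM in the F4/80high libraries and at 222, 253 and 364 CPM in the F4/80low libraries (ENSMUSG00000025044.17, chr8:40034726-40095714). The F4/80high libraries lay close together and above the F4/80low libraries, of which library 3 came nearest. The ratio of the means was 1.64 and the log2 fold change 0.72 (SE 0.17, edgeR adjusted p = 0.0086).

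Marco encodes a class A receptor that binds bacteria and particles. Marco (ENSMUSG00000026390.8, chr1:120402267-120432753) had 18, 36 and 21 counts in the F4/80high libraries and 3, 10 and 6 in the F4/80low libraries, that is 0.810, 1.275 and 0.681 CPM against 0.0985, 0.342 and 0.259 CPM. The groups did not overlap, although F4/80low library 1 held no more than the 3 counts of the floor. The log2 fold change was 1.98 (SE 0.51, edgeR adjusted p = 0.013). A filter at a mean of 1 CPM left Marco out of the test.

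Colec12, a class A receptor with a C-type lectin domain, was at 4.05, 4.04 and 2.14 CPM in the F4/80high libraries and at 2.50, 1.74 and 2.42 CPM in the F4/80low libraries (ENSMUSG00000036103.10). F4/80high library 3 lay within the F4/80low range. The log2 fold change was 0.62 (SE 0.31, edgeR adjusted p = 0.136), and the adjusted p was 0.032 without F4/80high replicate 3 and 0.069 with library totals in place of TMM scaling, between 0.0317 and 0.316 over all alternatives.

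The class B receptors did not move together. Cd36, the receptor for long-chain fatty acids and oxidized low-density lipoprotein, and Scarb1, which takes up cholesterol esters from high-density lipoprotein, were lower in F4/80high macrophages, whereas Scarb2 was slightly higher. Cd36 (ENSMUSG00000002944.16, chr5:17986432-18094067) lay at 29.0, 17.3 and 21.8 CPM in the F4/80high libraries and at 44.0, 31.9 and 101 CPM in the F4/80low libraries. The groups did not overlap, and F4/80low library 3 stood above the other five. The F4/80low mean was 2.60-fold higher, with a log2 fold change of -1.38 (SE 0.40, edgeR adjusted p = 0.021). Without F4/80low replicate 3 the log2 fold change was -0.74 (adjusted p = 0.0295).

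Scarb1 (ENSMUSG00000037936.16, chr5:125353547-125418176) was at 87.6, 93.1 and 93.3 CPM in the F4/80high libraries and at 119.8, 131 and 113 CPM in the F4/80low libraries. The difference was small beside those of Stab1 and Cd36, but the groups did not overlap. The F4/80low mean was 1.33-fold higher, with a log2 fold change of -0.41 (SE 0.08, edgeR adjusted p = 0.0046). Exons of 2 genes on the opposite strand overlap those of Scarb1.

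Scarb2, or LIMP-2, is a membrane protein of lysosomes. Scarb2 (ENSMUSG00000029426.9, chr5:92589169-92654692) lay at 216, 173 and 207 CPM in the F4/80high libraries and at 158, 168 and 157 CPM in the F4/80low libraries. The ranges did not overlap, but F4/80high library 2 and F4/80low library 2 were close. The log2 fold change was 0.30 (SE 0.10, edgeR adjusted p = 0.035), and the call was lost without F4/80high replicate 1 (adjusted p = 0.137), F4/80low replicate 1 (0.113) or F4/80low replicate 3 (0.103). The adjusted p lay between 0.0052 and 0.137 over all alternatives. Exons of 1 gene on the opposite strand overlap those of Scarb2.

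**Figure D2:**
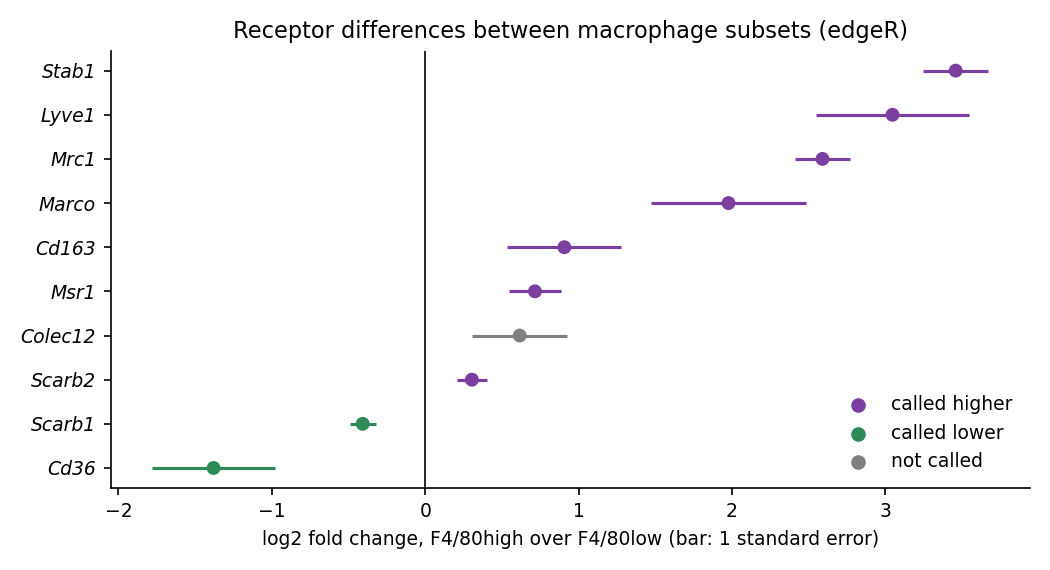
Log2 fold change of each receptor, F4/80high over F4/80low, with bars of 1 standard error from the edgeR fit of the 3 libraries of each subset. The values run from 3.46 for Stab1 to -1.38 for Cd36, with Colec12 (grey) not passing the test.

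To set the receptors beside each other, CPM were divided by the length of the exons in kilobases. In F4/80high macrophages Stab1 stood first, at 337 CPM per kb (range 282 to 419 over the 3 libraries), and Mrc1 followed at 175 CPM per kb (132 to 208). Msr1 came next at 72.4 (70.6 to 74.7), then Scarb2 at 28.8 (25.04 to 31.3), Scarb1 at 8.83 (8.46 to 9.02) and Cd36 at 1.80 CPM per kb (1.37 to 2.29). The ranges of neighbours among these 6 did not overlap. Lyve1 (0.878 CPM per kb, 0.460 to 1.504), Cd163 (0.827), Marco (0.479) and Colec12 (0.332) formed the low end, where each neighbour overlapped the next, and the Lyve1 range reached into that of Cd36.

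In F4/80low macrophages the per-length order of the abundant receptors was another one. Msr1 had the highest mean at 44.1 CPM per kb (35.0 to 57.4), followed by Stab1 at 30.6 (24.2 to 36.8) and Mrc1 at 29.1 CPM per kb (25.9 to 32.9), and the range of Stab1 overlapped both others. Scarb2 at 23.3 (22.7 to 24.3), Scarb1 at 11.7 (10.9 to 12.6) and Cd36 at 4.68 CPM per kb (2.53 to 8.02) came next. Cd163 (0.437), Colec12 (0.216), Marco (0.121) and Lyve1 (0.105 CPM per kb) were again the lowest, and the range of Marco overlapped those of Colec12 and Lyve1, which did not overlap each other. With the longest transcript as the length, Mrc1 and Stab1 changed places in F4/80low macrophages, as did Scarb1 and Scarb2.

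The make-up of the receptor set therefore differed between the subsets. Summed over the 10 receptors, the level was 615, 523 and 741 CPM per kb in the F4/80high libraries and 131, 137 and 165 CPM per kb in the F4/80low libraries. Stab1 alone made up 50.3%, 53.9% and 56.6% of that sum in F4/80high libraries and 18.4%, 22.6% and 22.3% in F4/80low libraries. Stab1 and Mrc1 together made up 79.1% to 84.7% and 39.6% to 43.5%, so the pair held the larger part of the sum in F4/80high libraries and the smaller part in F4/80low libraries. Msr1 took 9.53% to 13.8% in F4/80high libraries against 26.7% to 34.7% in F4/80low libraries, although its own level was higher in the former. Scarb2 took 4.06% to 5.09% against 13.8% to 17.7%. None of these shares overlapped between the groups, and shares of one sum are not independent of each other.

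**Figure D3:**
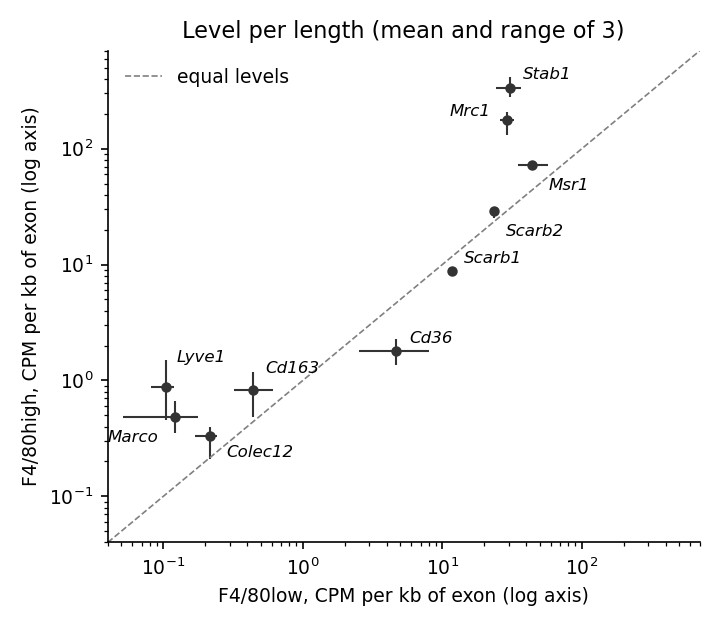
Level of each receptor per kilobase of exon in F4/80low (x axis) and F4/80high macrophages (y axis), both log axes in CPM per kb, with points at the mean and bars over the range of the 3 libraries. Stab1 (337 against 30.6) and Mrc1 (175 against 29.1) lie farthest above the line of equal levels among the abundant receptors, and Scarb1 and Cd36 lie below it.

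The nearest relatives of the receptors were read next. Mrc2, the collagen receptor related to Mrc1, was at 3.02 ± 1.12 and 2.03 ± 0.624 CPM and its libraries overlapped (log2 fold change 0.57, SE 0.35, edgeR adjusted p = 0.214). Scara3, a class A relative of Msr1, was at 2.05 ± 0.784 and 0.511 ± 0.155 CPM (n = 3 each) and was higher in F4/80high macrophages (log2 fold change 1.99, SE 0.39, adjusted p = 0.0037). Stab2, Scara5 and Cd163l1 were not found by symbol among the genes counted in the macrophages, so they could not be analysed.

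A wider list of 36 other scavenger and endocytic receptors was read the same way. Over its 29 genes analysed here the median log2 fold change was -0.16, against 0.01 for all genes. Beside 27.8% of all genes called higher and 27.1% called lower, 6 of the 29 (20.7%) rose and 10 (34.5%) fell. The other 13 did not pass the test. Among those that rose were Cd93, a C-type lectin-like receptor of myeloid and endothelial cells, at 509.9 ± 68.8 against 139.7 ± 35.5 CPM (log2 fold change 1.87, edgeR adjusted p = 1.0e-04), and Scarf1, which binds modified low-density lipoprotein, at 24.2 ± 6.83 against 9.30 ± 0.719 CPM (1.38, adjusted p = 6.0e-04). Fcgrt, the neonatal Fc receptor, was called higher although its libraries overlapped (154 ± 40.2 against 91.1 ± 20.1 CPM, log2 fold change 0.76, adjusted p = 0.020). The largest falls among genes with a mean of at least 5 CPM were in 3 C-type lectins. Cd209a, a DC-SIGN homolog, lay at 1.93 ± 0.972 against 128 ± 16.3 CPM (log2 fold change -6.08, edgeR adjusted p = 4.8e-06). Clec10a, a galactose-type lectin, lay at 10.6 ± 1.35 against 132 ± 11.6 CPM (-3.64, adjusted p = 1.6e-06), and Asgr2, a subunit of the asialoglycoprotein receptor, at 0.938 ± 0.200 against 12.6 ± 1.83 CPM (-3.75, adjusted p = 7.6e-06). The dendritic cell list below, which also holds Cd209a, moved the same way, and its part in these falls was not tested.

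Genes that act at the coat and in the early endosome, where bound receptors go, moved mostly by small amounts. Of 30 genes, 14 rose, 3 fell and 13 did not pass, with a median log2 fold change of 0.23. The shares were 46.7% higher and 10% lower, beside 27.8% and 27.1% of all genes. Cltc, the clathrin heavy chain, was at 1111 ± 181 against 503 ± 23.4 CPM (log2 fold change 1.14, edgeR adjusted p = 1.9e-04), Dab2, an adaptor that links receptors of the low-density lipoprotein family to clathrin, at 1192 ± 74.9 against 585 ± 53.9 CPM (1.03, adjusted p = 1.0e-04), and the sorting nexin Snx2 at 486 ± 19.5 against 218 ± 26.1 CPM (1.16, adjusted p = 6.0e-05). These were the 3 largest rises of the list. The falls were slight, for the clathrin assembly protein Picalm (log2 fold change -0.34, SE 0.13, edgeR adjusted p = 0.053), Snx1 (-0.28, SE 0.07, adjusted p = 0.013) and the early endosome GTPase Rab5a (-0.19, SE 0.08, adjusted p = 0.086). Their number depended on single libraries, with 1 fall called without F4/80high replicate 1, F4/80high replicate 2 or F4/80low replicate 3 and 6 without F4/80high replicate 3, and none was called with library totals as the scaling.

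Of 20 genes that handle sterols and lipids after uptake, 7 rose, 7 fell and 6 did not pass the test, with a median log2 fold change of -0.13. The shares were 35% higher and 35% lower, beside 27.8% and 27.1% of all genes. Abca1, which exports cholesterol from the cell, was at 507 ± 162 against 113 ± 41.7 CPM (log2 fold change 2.17, edgeR adjusted p = 5.1e-04), and Apoe, an acceptor of that cholesterol, at 10987 ± 2453 against 2756 ± 574 CPM (2.00, adjusted p = 1.2e-04). Npc1, which moves cholesterol out of lysosomes, was at 189 ± 20.8 against 129 ± 9.70 CPM (0.55, adjusted p = 0.0031). The other cholesterol exporter of the list, Abcg1, fell instead, with 119 ± 18.8 against 184 ± 19.6 CPM (log2 fold change -0.63, edgeR adjusted p = 0.0047). Nr1h3, the sterol-sensing nuclear receptor LXRα, was at 17.3 ± 3.83 against 32.2 ± 9.96 CPM with overlapping libraries (-0.89, adjusted p = 0.018), and the fatty acid carrier Fabp5 at 18.1 ± 1.79 against 70.7 ± 17.6 CPM (-1.97, adjusted p = 5.7e-05).

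**Figure D4:**
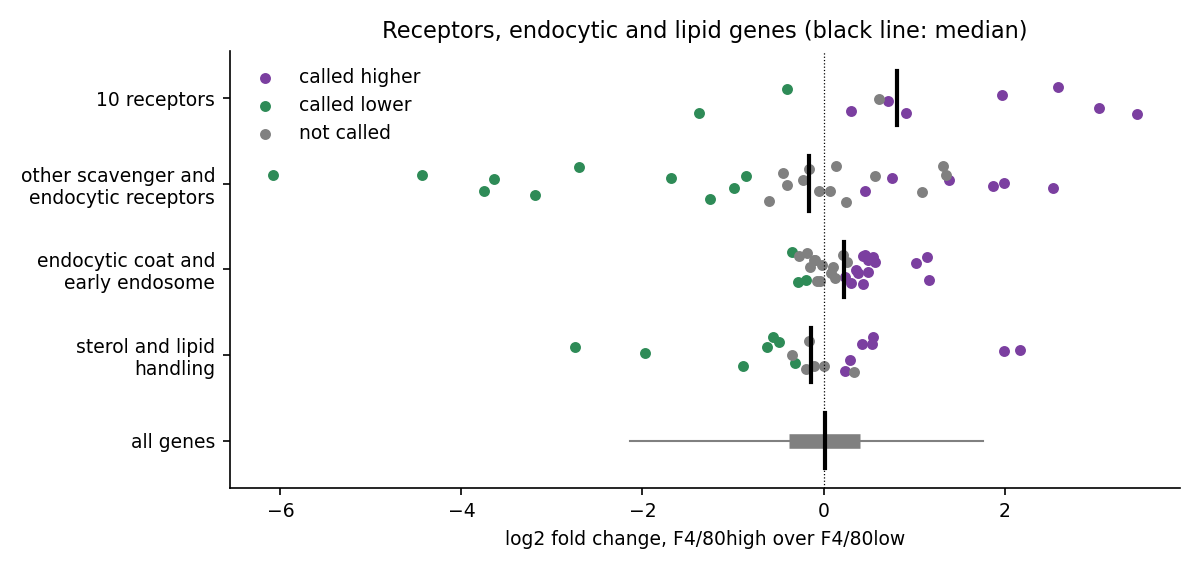
Log2 fold change, F4/80high over F4/80low, of the genes of each list (a point for each gene, a black line at the median), with all 13759 genes as a box of the middle quartiles and a line from the 5th to the 95th percentile. The 10 receptors have a median of 0.81, the other receptors -0.16, the coat and endosome genes 0.23 and the sterol and lipid genes -0.13.

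Markers of other cells were read beside the receptors, each list by its summed level, lowest to highest library. Across all genes, 27.8% were called higher and 27.1% lower. Macrophage markers lay at 12612 to 15798 CPM in F4/80high and at 4724 to 5465 CPM in F4/80low libraries, with 6 of 8 higher. That list includes Adgre1, whose protein was used for the sort. Of the classical monocyte markers, 7 of 8 were lower (954 to 1229 against 2358 to 2747 CPM). The other, F13a1, was higher, at 583 ± 172 against 196 ± 59.6 CPM (log2 fold change 1.57, edgeR adjusted p = 0.0015). Markers of sinusoidal and other endothelium, the cells that share Stab1, Lyve1, Mrc1, Cd36 and Scarb1, lay at 26.6 to 36.4 CPM in F4/80high and at 49.4 to 59.0 CPM in F4/80low libraries, and of the 7 analysed 4 fell and 2 rose. Clec4g, a sinusoidal lectin, had 9, 3 and 1 counts in the F4/80high libraries and 39, 24 and 14 in the F4/80low libraries. Pecam1 was at 6.31 ± 1.71 and 20.5 ± 1.09 CPM (log2 fold change -1.70, edgeR adjusted p = 1.6e-04). Kdr (6.12 against 17.6 CPM) and Oit3 (0.162 against 0.972 CPM) were lower as well, whereas Bmp2 (3.37 against 1.32 CPM) and the endothelial cadherin Cdh5 (5.13 against 3.25 CPM) were higher in F4/80high macrophages, and Dnase1l3 was at 8.93 and 10.6 CPM with overlapping libraries. Of the lymphatic endothelial list, 2 of 5 genes were analysed, Pdpn at 83.8 against 39.4 CPM and Flt4 at 0.733 against 1.22 CPM.

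Kupffer cell markers summed to 84.1 to 110.04 CPM in F4/80high and 60.3 to 73.4 CPM in F4/80low libraries, with 4 of 7 higher and 2 lower. Folr2 (79.6 against 4.70 CPM), Vsig4 (2.84 against 0.298 CPM) and Cd5l (4.67 against 0.808 CPM) were higher in F4/80high macrophages, while Timd4 (0.368 against 8.41 CPM) and Id3 (9.02 against 50.4 CPM) were lower, and Clec4f, a defining Kupffer cell gene, was at 1.284 and 0.512 CPM. The sort kept CD45+ cells, yet fibroblast and stellate cell markers lay at 261 to 562 CPM in F4/80high and 44.2 to 152 CPM in F4/80low libraries, with 5 of 6 higher, led by Col1a2 at 195 ± 122 against 30.3 ± 11.6 CPM. Dendritic cell markers were lower in F4/80high macrophages for 6 of 7 genes (22.2 to 29.0 against 393 to 695 CPM). Of the tumor epithelium list, 2 of 6 genes were analysed, and both were lower (8.30 to 11.8 against 197 to 281 CPM). These were Cdh1 (9.24 against 234 CPM) and Epcam (0.257 against 13.9 CPM). The 4 keratins of that list were not among the genes counted. Neutrophil markers lay at 73.9 to 104.6 against 95.9 to 151 CPM, with 5 of 6 lower. The other, Csf3r, was not called and had the highest mean of that list in both subsets (85.7 ± 15.7 against 75.2 ± 8.67 CPM). The lower ones included Ngp (0.0150 ± 0.0260 against 19.3 ± 27.9 CPM) and Mmp8 (0.464 ± 0.284 against 10.3 ± 6.19 CPM). Hepatocyte (1.65 to 9.81 against 1.82 to 4.88 CPM), T and NK cell (2.23 to 7.34 against 4.45 to 13.9 CPM), B cell (18.6 to 36.9 against 6.36 to 19.7 CPM) and erythroid markers (1.49 to 42.6 against 2.08 to 100.1 CPM) were low, with 0 of 3, 1 of 5, 1 of 5 and 0 of 4 called. The part of these cells in the receptor differences was not tested.

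The genes whose log2 CPM followed a receptor most closely over the 6 libraries were listed for Stab1 and Lyve1, the called receptors with the largest changes. These genes were picked for the highest r among all other genes with a mean of at least 5 CPM, so a high r does not show a link. For Stab1 they included Cd81 and Sash1, with Pearson r of 0.9994 and 0.9989. Their log2 fold changes of 2.51 and 1.79 lay in the direction of Stab1, and the 6 points share the gap between the groups. For Lyve1 they were Zfp91, Pex7 and Dctn5 (r from 0.992 to 0.999), whose log2 fold changes were 0.14, 0.15 and 0.22, well below that of Lyve1.

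Outside the macrophages, the receptors were looked up in 12 libraries of sorted liver lymphocytes from the same model, 6 of metastasis-free liver (MFL) and 6 of liver metastasis (LM), made with another kit and counted in another table, so no test was run across them. Scarb2 was present in all 12, at 62.8 to 148 CPM after TMM scaling of these 12 libraries. Scarb1 lay between 0 and 2.04 CPM and was above 0 in 4 of 6 MFL and 2 of 6 LM libraries. The other 8 receptors had 0 counts in all 6 LM libraries, where 3 counts correspond to 0.209 to 0.341 CPM before that scaling. In the 6 MFL libraries together they had 9 (Marco) to 77 counts (Cd163), with 35 for Stab1 and 22 for Mrc1. The lysosomal Scarb2 was therefore the single receptor of the set read in every library of both cell types.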

How the data were processed

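Bulk RNA-seq counts of 6 libraries of sorted liver metastasis macrophages were analysed, with 12 lymphocyte libraries read for description only. The authors deposited estimated counts per gene without normalization. RNA libraries of the macrophages were made with a directional poly(A) kit. The submitters' processing notes name Trim Galore, Salmon 1.10.0, R 4.3.1, DESeq2 1.40.2 and GRCm39, without the role of each, and the annotation release and the handling of strand are not given in the sources used here. The macrophage values are whole numbers. IDs were named from GENCODE vM39, which held 13726 of 13759.

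After TMM scaling, the subsets were compared in edgeR 4.0.16 (quasi-likelihood test, filterByExpr, which kept all 13759 genes, the lowest with 37 counts in total) in R 4.3.3. P-values were adjusted by Benjamini-Hochberg over all genes, and genes with an adjusted p under 0.1 were called. The SE of a log2 fold change is its size over the square root of F and is approximate. With 3 libraries against 3, an exact permutation test cannot go below p = 0.1. DESeq2 1.42.0, limma-voom (limma 3.58.1), other scalings and filters, a replicate block and each library left out were tried as alternatives, and the fits were tested on simulated data. Plots used matplotlib 3.10.9. The text names all 10 receptors, their paralogs, sort, monocyte and endothelial genes, the 3 called genes per direction with the largest change and a mean of at least 5 CPM in each of 3 other lists, and the 3 genes nearest to each of the 2 most changed receptors, except that 2 genes the rule names are not reported here. Genes of marker lists named beside them were picked after their values were seen. The receptors and lists were chosen with earlier results of these data known. Intervals of precision were not computed, and the floor of 3 counts covers counting error only.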

Additional observations from a re-analysis of the deposited data

How the results depend on the processing

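Over 139 refitted values of the 10 receptors, 129 kept their direction and their side of the threshold, 8 lost the call (Cd163 and Scarb2), 2 gained it (Colec12) and 0 changed sign. The number called higher was 6 to 8 under other tools, scalings, filters and an adjusted p under 0.05, and 5 to 7 with a library left out, against 7, and the number called lower was 2 throughout. Among 26 other named genes, 1 of 363 values changed sign, that of Itgam, which was not called. Itgam ranged from -0.072 without F4/80high replicate 3 to 0.2866 without F4/80low replicate 3. The coat and endosome genes called lower, 3 as reported, were 0 with library totals, 1 at an adjusted p under 0.05 and 1 to 6 with a library left out, and the cause was not tested. All genes called ranged from 6550 to 7234 with a library left out, which leaves fewer samples. Library totals in place of TMM moved the median of all genes to 0.16 and the calls from 3821 higher and 3734 lower (50.6% higher) to 5205 and 2816 (64.9%). Relative to that shift all 10 receptors kept the direction reported. Replicate numbers were not taken as pairs, since same-numbered libraries correlated at 0.172, -0.0145 and 0.0272 and not every library correlated best with its own number. The replicate block called 3791 genes higher and 3721 lower and left 7 and 2 receptors called, and of the named genes Rab5a alone lost its call (adjusted p = 0.105). With longest transcripts as lengths, the per-kb level in F4/80high macrophages moved beyond 1 SD for 6 receptors, to 433 for Stab1, 250.1 for Mrc1, 126 for Msr1, 42.1 for Scarb2, 29.1 for Scarb1 and 5.19 for Cd36. Depth limits Marco most, with 3 to 36 counts a library.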
